A study of Mus musculus with 11 samples.

Results

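The 10 genes described here carry out the last steps of urine composition in the collecting duct: the water channels *Aqp2*, *Aqp3* and *Aqp4*, the vasopressin receptor *Avpr2*, the epithelial sodium channel (ENaC) subunits *Scnn1a*, *Scnn1b* and *Scnn1g*, and the anion exchangers *Slc4a1*, *Slc26a4* and *Slc4a9*. They were taken by gene name from the table of all genes, 10 of the 53801 genes listed, and 9 of them were among the 18160 genes with enough reads to be tested. RNA-Seq was performed on kidney cortex from 6 Cpt1aCKO mice and 5 floxed control mice, with 1 library per mouse. All were males on a mixed background, aged 2 years, and every mouse had eaten doxycycline food for 3 weeks when it was 5 to 8 weeks old. Cpt1aCKO mice carry floxed *Cpt1a* with Pax8-rTTA;tetO-Cre, in which doxycycline switches on Cre in tubule cells, and floxed controls carry the floxed gene. Pax8 drives the transgene along the tubule including the collecting duct, not in the collecting duct alone, so the deletion was not specific to the cells that make these transporters.

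In the collecting duct, principal cells take up water and sodium and intercalated cells move acid and base. Vasopressin binds AVPR2 on the blood side of principal cells, and cyclic AMP then brings AQP2 to the urine side, while AQP3 and AQP4 let water leave on the blood side. ENaC, built from alpha, beta and gamma subunits and controlled by aldosterone, admits sodium from the urine. Among intercalated cells, type A cells secrete acid and carry the kidney form of AE1 (*Slc4a1*), and non-A cells secrete bicarbonate through pendrin (*Slc26a4*) with AE4 (*Slc4a9*) on the blood side.

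Depth was 43027049 to 57459929 counted reads per Cpt1aCKO library and 39628721 to 56241595 per floxed control library. Levels of a gene are given below as CPM, read counts put on a common scale by TMM, and log2 fold changes are Cpt1aCKO over floxed control from edgeR's quasi-likelihood test with its standard error (SE). *Cpt1a*, the deleted gene, was at 66.5 ± 21.1 CPM in Cpt1aCKO mice (SD, n = 6) and 472 ± 54.4 CPM in floxed control mice (SD, n = 5), without overlap. Proximal tubule markers summed to between 12019 and 15336 CPM in the Cpt1aCKO group and between 12805 and 15434 CPM in the floxed control group, and principal cell markers to 397 to 495 CPM in the Cpt1aCKO group and 370.1 to 558 CPM in the floxed control group. Library S7602 (Cpt1aCKO) stood apart by its reads on olfactory receptor genes, at 158 CPM against 8.89 to 21.6 CPM in the other Cpt1aCKO mice and between 10.9 and 40.8 CPM in floxed controls. In whole tissue, fewer cells of a type and less RNA per cell cannot be told apart.

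None of the 9 tested genes changed at an adjusted p under 0.05 by edgeR, where 0.0165% of all genes tested did (3 of 18160), or by DESeq2, where 0.275% did. At an unadjusted p under 0.05, *Scnn1a* and *Scnn1b* were lower in Cpt1aCKO mice (2 of 9, against 2.57% of all genes tested), and none was higher (0 of 9, against 3.35%). None of the 9 separated the groups without overlap, which 0.611% of all genes did. Their median log2 fold change was -0.0024, and the median over all genes tested was 0.0060. By size, the point estimates lay between -0.22 (*Scnn1a*, a difference of -14.0%) and 0.19 (*Aqp4*, 14.3%).

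**Figure D1:**
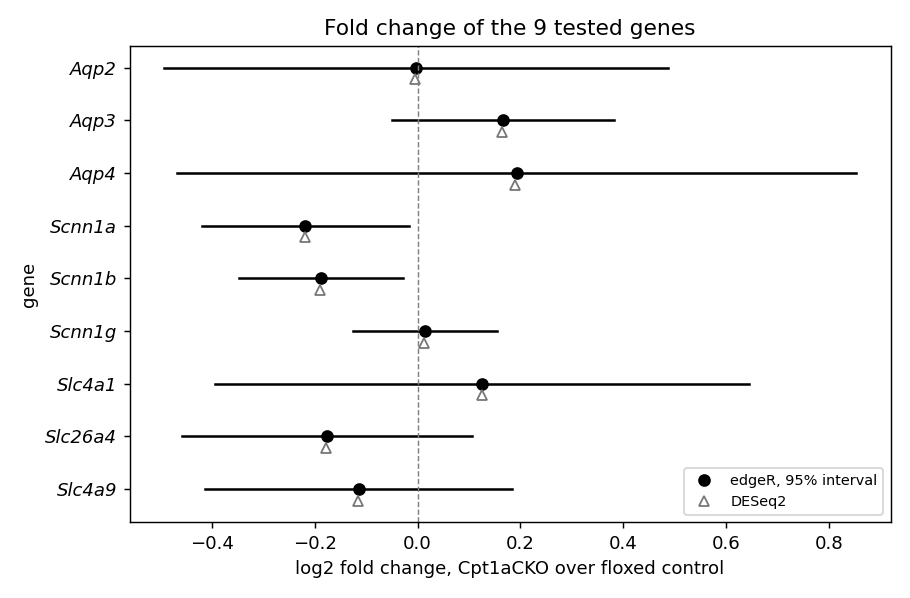
Log2 fold change (Cpt1aCKO over floxed control, x axis) of the 9 tested genes, with the edgeR estimate as a filled circle, its 95% interval as a line and the DESeq2 estimate as a triangle. The intervals of *Scnn1a* (-0.42 to -0.017) and *Scnn1b* (-0.35 to -0.028) lie below 0, and that of *Aqp4* is the widest (-0.47 to 0.85).

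Corrected for exon length (RPKM, with exon lengths from GENCODE M21), *Aqp2* was the most abundant of the 10, with a mean level of 559 RPKM over the 11 mice. *Aqp3* followed at 141 RPKM and *Slc26a4* at 43.8 RPKM, and these 3 stood in this order, above all ENaC subunits, in 11 of 11 mice. The ENaC subunits had close levels of 24.1 RPKM (*Scnn1b*), 23.4 RPKM (*Scnn1a*) and 21.2 RPKM (*Scnn1g*), with *Scnn1b* above *Scnn1a* in 8 of 11 mice and *Scnn1a* above *Scnn1g* in 9 of 11. The lowest measured levels were 11.3 RPKM for *Aqp4*, 8.45 RPKM for *Slc4a9* and 7.87 RPKM for *Slc4a1*. *Aqp4* was above *Slc4a9* in 6 of 11 mice, and *Slc4a9* above *Slc4a1* in 6 of 11, so that these neighbours had no stable order. The genes also differed in spread between mice. The coefficient of variation of CPM over all mice was 41.4% for *Aqp4*, 29.7% for *Aqp2* and 28.3% for *Slc4a1*, but 10.5% for *Scnn1b* and 6.16% for *Scnn1g*.

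**Figure D2:**
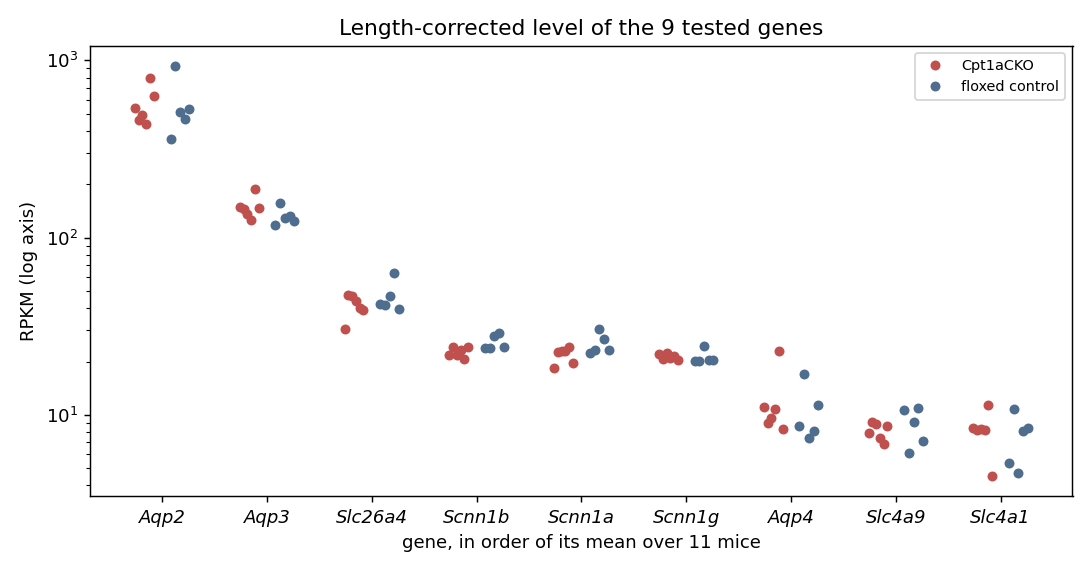
RPKM of the 9 tested genes (log axis), each point 1 mouse, Cpt1aCKO left and floxed control right within each gene. *Aqp2*, *Aqp3* and *Slc26a4* keep their order in all 11 mice, whereas the points of *Aqp4*, *Slc4a9* and *Slc4a1* overlap.

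*Aqp2* (ENSMUSG00000023013, chromosome 15, 99579055 to 99584547, plus strand, in GENCODE M21) encodes the vasopressin-regulated water channel. In Cpt1aCKO mice its lowest, median and highest levels were 624, 728 and 1132 CPM, and the 5 floxed control mice had 509, 1312, 729, 664 and 757 CPM. The groups overlapped across nearly their whole ranges. Highest of the Cpt1aCKO mice was S7763 at 1132 CPM, followed by S2577 at 893 CPM. Highest of the floxed controls was S7601 at 1312 CPM, followed by S2578 at 757 CPM. The log2 fold change was -0.0024 (SE 0.23, 95% interval -0.49 to 0.49), with an exact two-sided permutation p of 0.879. The interval runs from -28.9% to 40.2%, so that a change of moderate size was not detectable with this spread. Without S7601 the log2 fold change of *Aqp2* was 0.26 and without S7763 it was -0.13. It was also above 0 without S2155 (0.0090), S2394 (0.049), S2397 (0.033) or S7602 (0.058). With an estimate this near 0, its sign was not determined.

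Because vasopressin acts on *Aqp2* through cyclic AMP, the 250 bases upstream of its start are shown from RefSeq (build GRCm38.p6, chromosome 15, 99578806 to 99579055, plus strand). The letters of the cyclic AMP response element core (TGACG, here on the minus strand and so read as its reverse complement, CGTCA) are in capitals.
Aqp2: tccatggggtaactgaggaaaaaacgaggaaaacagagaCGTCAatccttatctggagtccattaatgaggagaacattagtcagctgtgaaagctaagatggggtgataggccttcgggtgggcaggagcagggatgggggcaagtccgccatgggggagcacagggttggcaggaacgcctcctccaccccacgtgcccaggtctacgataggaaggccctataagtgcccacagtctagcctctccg
These 5 letters start 211 bases before the start site, and 17.8% of 32851 RefSeq promoter windows of this length hold them on either strand. The match describes letters only.

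*Aqp3* (ENSMUSG00000028435, chromosome 4, 41092722 to 41098183, minus strand) encodes the main water channel of the blood side. Its lowest, median and highest levels were 229.5, 267 and 345 CPM in Cpt1aCKO mice, and floxed control mice had 216, 288, 236, 242 and 226 CPM. S7763 was above all floxed control mice and the other Cpt1aCKO mice lay within the control range. *Aqp3* had a log2 fold change of 0.17 (SE 0.10, 95% interval -0.05 to 0.38, adjusted p = 0.863 by edgeR's quasi-likelihood test with Benjamini-Hochberg adjustment). Without S7601 alone it was 0.24 at an unadjusted p of 0.0357, and without S7763 alone it was 0.084 at 0.324.

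*Aqp4* (ENSMUSG00000024411, chromosome 18, 15389496 to 15410982, minus strand) encodes the second blood-side water channel, which in mouse is most abundant in the inner medulla. Cpt1aCKO mice had 52.1, 63.5 and 143 CPM as lowest, median and highest level, and floxed control mice had 53.8, 106, 46.0, 50.6 and 70.6 CPM. S7763 and S7601 again stood highest in their groups and the remaining 9 mice lay between 46.0 and 70.6 CPM. For *Aqp4* the log2 fold change was 0.19 (SE 0.30, adjusted p = 0.959 by edgeR), and it turned to -0.10 without S7763.

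**Figure D3:**
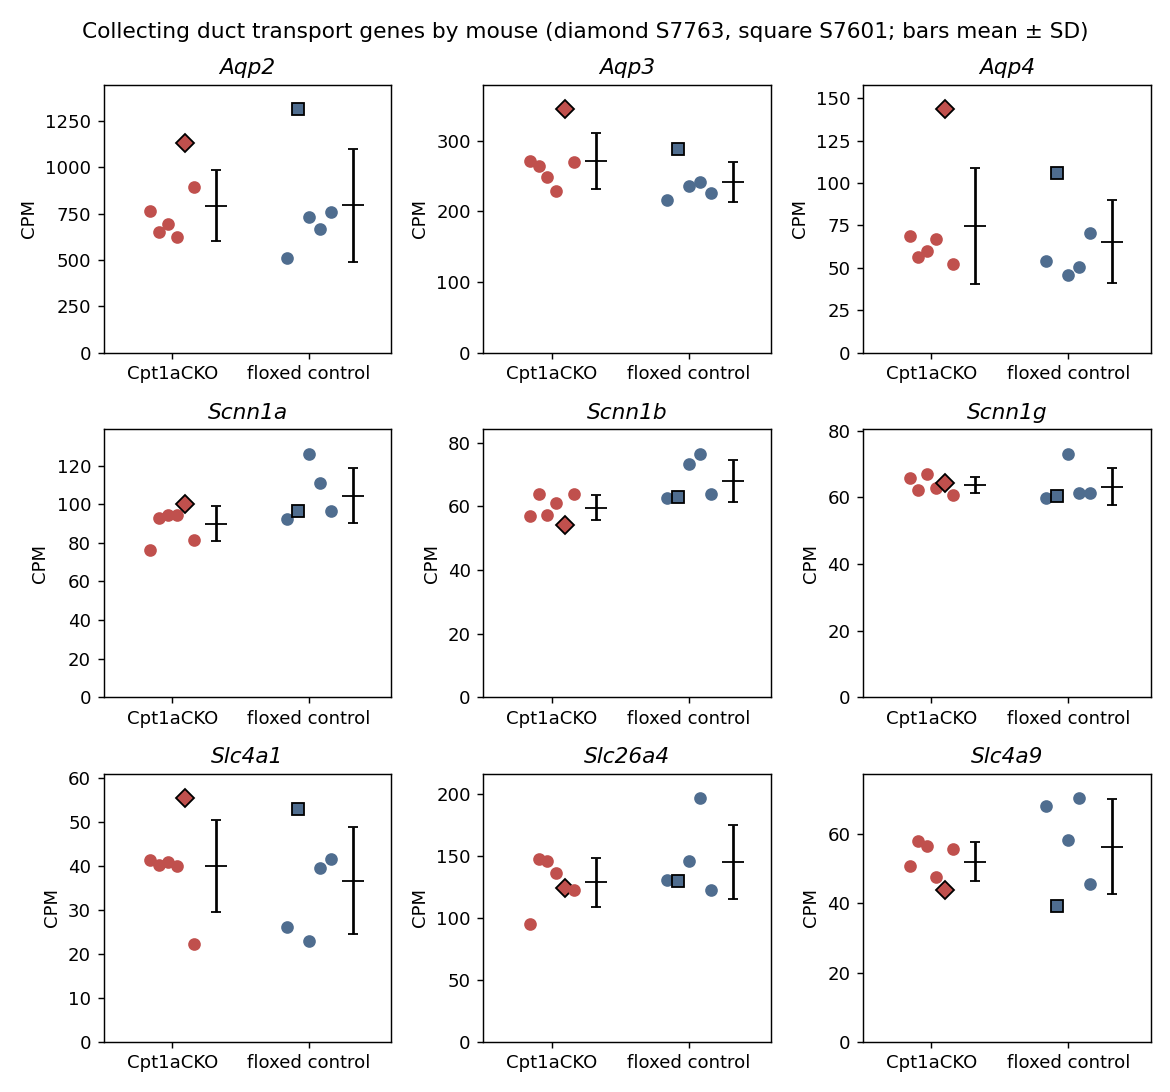
CPM of the 9 tested genes in each mouse (y axes from 0), Cpt1aCKO left and floxed control right, with the mean ± SD beside the points. S7763 (diamond) and S7601 (square) are the highest of their groups for *Aqp2*, *Aqp3*, *Aqp4* and *Slc4a1*, and the lowest for *Slc4a9*.

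*Avpr2* (ENSMUSG00000031390, chromosome X, 73892102 to 73895502, plus strand) encodes the receptor for vasopressin and was not tested. It had 2 reads in S7763 and 0 in the other 5 Cpt1aCKO mice, and 1 read in each of S2152 and S2578 and 0 in the other 3 floxed control mice. A count of 0 allows up to 3 reads, a level of 0.0527 to 0.0690 CPM in those Cpt1aCKO libraries and 0.0532 to 0.0637 CPM in those floxed control libraries. This limit covers counting error only. In GENCODE M21, 2347 of the 2886 exon bases of *Avpr2* (81.3%) are also exon bases of *Arhgap4*, a gene on the opposite strand, which leaves 539 bases of its own. *Arhgap4* had 112 to 236 reads in Cpt1aCKO mice and 132 to 166 reads in floxed control mice. The libraries were stranded, but whether the counting used the strand is not given in the sources used here, and the part of this overlap in the low count was not tested. Exons of the other 9 genes overlapped no other gene. Nothing can be said from these counts on the receptor's expression.

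No other gene of the vasopressin pathway passed. Of 16 genes for cyclic AMP signaling, AQP2 trafficking and transcription factors, all tested, 0 passed upward and 0 downward at unadjusted p. Over all genes tested 3.35% passed upward and 2.57% downward, so that 0 of 16 is near these shares. The median log2 fold change of the 16 was -0.0051. The smallest p belonged to *Akap7*, a protein kinase A anchor at 0.18 (SE 0.10), and *Elf3*, an epithelial transcription factor, was at -0.18 (SE 0.11). The catalytic subunits of protein kinase A were at 0.18 (SE 0.12, *Prkacb*) and 0.0071 (SE 0.084, *Prkaca*) on the same log2 fold change scale. Of 6 principal cell markers none passed in either direction, with *Hsd11b2*, the enzyme that protects the mineralocorticoid receptor from glucocorticoids, at -0.14 (SE 0.086). Of 6 other water channel genes 1 was lower at an unadjusted p (2.57% of all genes were), *Aqp7* of the proximal tubule (log2 fold change -0.16, SE 0.075, adjusted p = 0.839 by edgeR), while *Aqp1* was at 0.11 (SE 0.33).

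*Scnn1a* (ENSMUSG00000030340, chromosome 6, 125320659 to 125344943, plus strand) encodes the alpha subunit of ENaC, whose transcription aldosterone raises. Its lowest, median and highest levels were 76.1, 93.6 and 100.03 CPM in Cpt1aCKO mice, and floxed control mice had 92.5, 96.3, 126, 111 and 96.3 CPM. Of the Cpt1aCKO mice, 2 lay below all controls, S2155 at 76.1 CPM and S2577 at 81.5 CPM, and the other 4 were within the lower control range. Its log2 fold change was -0.22 (SE 0.094), with an unadjusted p of 0.0354 and an adjusted p of 0.826 by edgeR. The exact two-sided permutation p was 0.0823, and the unadjusted edgeR p was above 0.05 when S7762, S2582, S2155 or S2577 was left out (up to 0.137 without S7762).

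*Scnn1b* (ENSMUSG00000030873, chromosome 7, 121865038 to 121918514, plus strand) encodes the beta subunit. Cpt1aCKO mice had 54.2, 59.3 and 64.0 CPM as lowest, median and highest level, and floxed control mice had 62.6, 62.8, 73.3, 76.5 and 64.0 CPM. In Cpt1aCKO mice 4 of 6 values lay below all floxed controls, and the other 2 were among the 3 lowest controls. The beta subunit had a log2 fold change of -0.19 (SE 0.074), a difference of -12.2%, with an unadjusted p of 0.0241, an adjusted p of 0.778 by edgeR and an exact two-sided permutation p of 0.0303. That call was lost without S7762 (unadjusted edgeR p of 0.0691) or S2582 (unadjusted edgeR p of 0.0856), the floxed control mice with the highest levels, and the estimate then was -0.16 or -0.14.

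*Scnn1g* (ENSMUSG00000000216, chromosome 7, 121734479 to 121768475, plus strand) encodes the gamma subunit and had the smallest spread of the 9 tested genes. Its lowest, median and highest levels were 60.8, 63.5 and 67.1 CPM in Cpt1aCKO mice, against 59.9, 60.4, 73.1, 61.2 and 61.4 CPM in floxed control mice. Apart from S7762 at 73.1 CPM, the floxed control mice lay between 59.9 and 61.4 CPM, below all Cpt1aCKO mice except S2577 at 60.8 CPM. The gamma subunit had a log2 fold change of 0.014 (SE 0.065, 95% interval -0.13 to 0.15, adjusted p = 0.994 by edgeR), and the interval corresponds to -8.39% to 11.3%.

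The gamma and beta genes lie in the same orientation on chromosome 7, with 96562 bases between the end of *Scnn1g* and the start of *Scnn1b*, and their balance was compared within each mouse. The CPM ratio of *Scnn1g* to *Scnn1b* was 0.950 to 1.19 in Cpt1aCKO mice (median 1.09) and 0.800 to 0.998 in floxed control mice (median 0.959). In Cpt1aCKO mice 4 of 6 ratios were above all floxed control ratios. The difference of the log2 ratio was 0.20, with an exact two-sided permutation p of 0.0433 that became 0.303 after adjustment over the 7 ratios between these genes, and so failed the correction. The difference was 0.15 to 0.24 with any 1 mouse left out, and its exact p was then between 0.0159 and 0.0762. Without S2582, whose *Scnn1b* was the highest, the difference was 0.15 (exact p = 0.0762). By contrast, the ratio of *Scnn1a* to *Scnn1b* differed by -0.030 in log2 (exact p = 0.766).

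**Figure D4:**
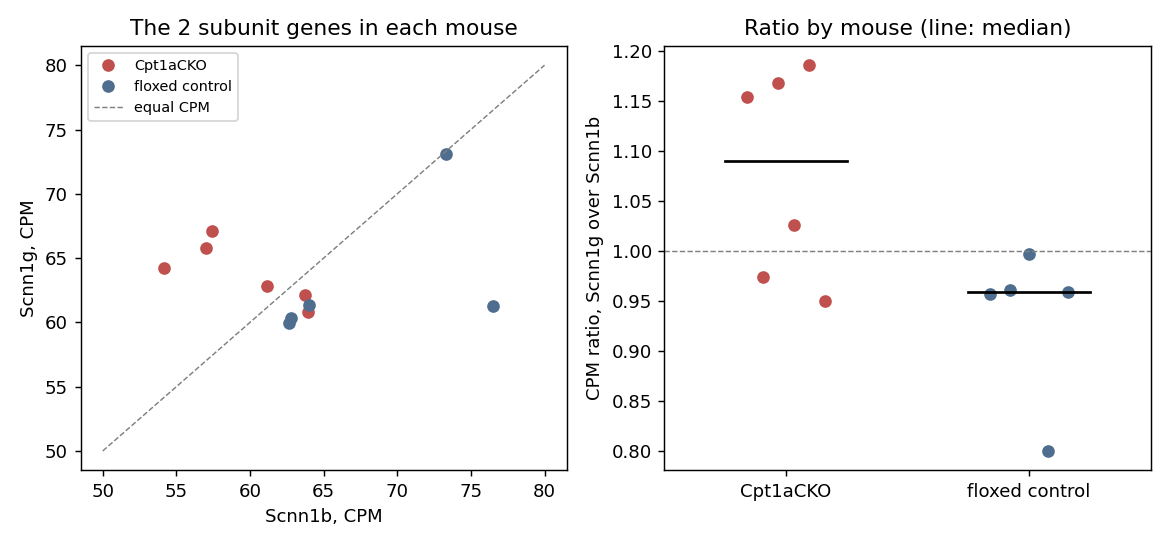
Left, CPM of *Scnn1g* against *Scnn1b* in each mouse, with a dashed line where both are equal. Right, the CPM ratio of the gamma to the beta gene by mouse with the group median (1.09 in Cpt1aCKO mice and 0.959 in floxed control mice), where 4 Cpt1aCKO mice lie above all floxed controls.

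The 250 bases upstream of these neighbouring genes are shown from RefSeq (build GRCm38.p6, chromosome 7, plus strand, 121734229 to 121734478 for *Scnn1g* and 121864788 to 121865037 for *Scnn1b*) since these genes were set against each other, with the GC box (GGGCGG on either strand) in capitals.
Scnn1g: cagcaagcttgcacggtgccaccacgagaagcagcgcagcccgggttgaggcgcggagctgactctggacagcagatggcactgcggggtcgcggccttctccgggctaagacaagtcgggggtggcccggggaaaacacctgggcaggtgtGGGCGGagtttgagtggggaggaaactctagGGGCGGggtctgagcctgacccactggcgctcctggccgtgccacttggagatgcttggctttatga
Scnn1b: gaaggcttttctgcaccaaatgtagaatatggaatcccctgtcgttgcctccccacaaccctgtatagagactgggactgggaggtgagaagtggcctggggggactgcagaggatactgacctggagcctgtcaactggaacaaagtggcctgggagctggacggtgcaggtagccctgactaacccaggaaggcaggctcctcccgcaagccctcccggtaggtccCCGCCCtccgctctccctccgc
The gamma window holds the GC box in 2 places, 98 and 67 bases before the start site, and the beta window in 1 place, 22 bases before it, on the minus strand. Of all RefSeq promoter windows of this length 32.7% hold these letters. The TATA box (TATAAA) and the hexamer of steroid receptors (TGTTCT), which 12.4% and 16.1% of all windows hold on either strand, are in neither window. In all, 6 of the 10 genes had a window in the RefSeq table, and no comparison of expression rests on these matches.

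Genes of aldosterone action, ENaC processing and the WNK kinases, a pathway best known for the distal convoluted tubule, were listed together. Of 22, all tested, 5 were lower at an unadjusted p (against 2.57% of all genes) and 0 higher (against 3.35%), 14 of the 22 estimates were negative and 8 positive, with a median log2 fold change of -0.066, and 0 passed at an adjusted p under 0.05 by edgeR or by DESeq2. The 5 were *Usp2*, a ubiquitin protease (-0.49, SE 0.15), *Klhl3*, which targets WNK kinases for degradation (-0.31, SE 0.11), *Kcnj10*, a potassium channel of the blood side (-0.30, SE 0.11), *Wnk1* (-0.30) and the sodium pump subunit *Atp1b1* (-0.15). The connecting tubule also makes ENaC, and its markers were taken with those of the distal convoluted tubule. Of 8 such markers 4 were lower at an unadjusted p (2.57% of all genes were) and 0 higher, 0 passed adjustment by edgeR (smallest adjusted p = 0.674) or DESeq2 (0.167), and the median was -0.25. Those with the smallest p were *Calb1* (-0.41, SE 0.13), *S100g* (-0.52, SE 0.16) and *Trpv5* (-0.37, SE 0.16), 3 genes of calcium reabsorption. *Klk1*, the most abundant marker, was at -0.27 (SE 0.14), and the 1 positive estimate was 0.13 for *Trpm6*, a magnesium channel. Summed over the list, Cpt1aCKO mice had 3167 to 4148 CPM and floxed control mice 4030 to 6432 CPM, with no marker at 0 in all mice. Of 6 thick ascending limb markers 3 were lower at an unadjusted p (2.57% of all genes were) and 0 higher, with edgeR adjusted p of 0.755 to 0.839 (*Umod* -0.23, SE 0.082, *Cldn16* -0.33, SE 0.13, and *Egf* -0.21, SE 0.094), and that list summed to 4961 to 6415 CPM in Cpt1aCKO mice and between 5243 and 6788 CPM in floxed controls. The part of these segments in the lower *Scnn1a* and *Scnn1b* counts was not tested.

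*Slc4a1* (ENSMUSG00000006574, chromosome 11, 102348824 to 102366203, minus strand) encodes AE1, which type A intercalated cells and red blood cells both make. Cpt1aCKO mice had 22.2, 40.6 and 55.4 CPM as lowest, median and highest level, and floxed control mice had 26.2, 53.0, 22.9, 39.6 and 41.5 CPM. The groups shared nearly the same range, with S7763 and S7601 highest and S2577 (Cpt1aCKO) lowest. For AE1 the log2 fold change was 0.13 (SE 0.24, 95% interval -0.39 to 0.64, adjusted p = 0.967 by edgeR). The interval runs from -23.8% to 56.4%. The estimate was 0.00091 when S7762 and 0.30 when S7601 was left out. Of erythroid markers 6 of 9 had enough reads. At unadjusted p 0 of these 6 were higher (3.35% of all genes were) and 0 lower (2.57%), near these shares. The erythroid markers summed to 236 to 561 CPM in Cpt1aCKO mice and between 288 and 587 CPM in floxed controls. Across the 11 mice this sum and *Slc4a1* gave r = -0.19 (permutation p = 0.569) and rho = -0.0091 (permutation p = 0.990).

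*Slc26a4* (ENSMUSG00000020651, chromosome 12, 31519827 to 31559969, minus strand) encodes pendrin, the chloride and bicarbonate exchanger of non-A cells. Its lowest, median and highest levels were 95.1, 130.2 and 148 CPM in Cpt1aCKO mice, and floxed control mice had 131, 129.97, 146, 196 and 123 CPM. S2155 was the lowest Cpt1aCKO mouse and S2582 the highest floxed control, and all other mice lay between 122 and 148 CPM. Pendrin had a log2 fold change of -0.18 (SE 0.13, 95% interval -0.46 to 0.11, adjusted p = 0.889 by edgeR), and without S2582 it was -0.039.

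*Slc4a9* (ENSMUSG00000024485, chromosome 18, 36528147 to 36556273, plus strand) encodes AE4 of the same cells. Cpt1aCKO mice had 43.9, 53.3 and 58.1 CPM as lowest, median and highest level, all inside the floxed control range of 68.3, 39.3, 58.5, 70.5 and 45.7 CPM. The floxed control mice spread more widely, with S7601 lowest of all 11. *Slc4a9* had a log2 fold change of -0.11 (SE 0.14, adjusted p = 0.936 by edgeR), with -0.019 when S2582 and -0.22 when S7601 was left out. The ratio of *Slc4a9* to *Slc26a4* differed by 0.084 in log2 (exact p = 0.608) and that of *Slc26a4* to *Slc4a1*, non-A over type A cells, by -0.31 (exact p = 0.351), so that no shift between the exchangers was detectable.

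Other genes of intercalated cells were listed together. Of 27 genes for proton pumps, carbonic anhydrases, ammonia channels and cell identity, 26 were tested, with a median log2 fold change of -0.071. At an unadjusted p under 0.05, 1 was higher (against 3.35% of all genes tested) and 2 were lower (against 2.57%). The higher one was *Atp12a*, the nongastric proton and potassium pump, at 1.20 ± 0.379 CPM in Cpt1aCKO mice (SD, n = 6) and 0.131 ± 0.0294 CPM in floxed control mice (SD, n = 5), 1 of the 3 genes called among all 18160. Of the lower ones, *Rhbg*, an ammonia channel, had a log2 fold change of -0.35 (SE 0.11, adjusted p = 0.674 by edgeR), and its groups did not overlap, as in 0.611% of all genes tested. *Car2*, the most abundant gene of the list, was at -0.059 (SE 0.083).

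Levels of several of these genes moved together from mouse to mouse, with both genotypes in view. *Aqp2* and *Aqp3* went together over the 11 mice (r = 0.81, permutation p = 0.00262, adjusted over 36 pairs 0.0472, and rho = 0.76, permutation p = 0.0085, adjusted 0.102), with r = 0.65 when S7601 and S7763 were left out. *Aqp4* and *Slc4a1*, genes of different cell types, went together (r = 0.78, permutation p = 0.00564, adjusted 0.0560, and rho = 0.93, permutation p = 0.0002, adjusted 0.0072) and kept r = 0.71 without these mice. *Aqp4* and *Slc4a9* ran opposite (r = -0.80, permutation p = 0.00172, adjusted 0.0472, and rho = -0.89, permutation p = 0.00062, adjusted 0.0112), with r = -0.77 without them. *Aqp2* and *Aqp4* gave r = 0.75 (permutation p = 0.0122) and rho = 0.50 (permutation p = 0.123), but r = 0.055 without S7601 and S7763, so that this relation rests on those mice. *Scnn1b* and *Scnn1g* gave r = 0.054 (permutation p = 0.878) and rho = -0.27 (permutation p = 0.417). Over the 9 mice left without S7762 and S2582, those farthest from the *Scnn1b* median, their r was -0.80. No p was computed for this r. With the genotype means removed, r over all 11 mice was 0.16.

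Markers of neighbouring tissues were set beside the water channels, and *Aqp2* followed those of the urothelium. Of 6 urothelium markers, all tested, 0 were higher at unadjusted p (3.35% of all genes were) and 0 lower (2.57%), near these shares. The 6 summed to 6.72 to 35.9 CPM in Cpt1aCKO mice and between 6.19 and 36.9 CPM in floxed controls. S7763 was at 35.9 CPM, S7601 at 36.9 CPM and all others at 19.0 CPM or less. *Upk2* and *Krt5* were at 0 in at least 1 floxed control mouse. Among 108 relations between the 9 genes and 12 lists, *Aqp2* followed this sum most closely (r = 0.90, permutation p = 0.00015, adjusted 0.00918, and rho = 0.85, permutation p = 0.00142), with r = 0.74 without S7601 and S7763. Markers of the medulla and papilla, 0 higher and 0 lower of 6, summed to 308 to 621 CPM in Cpt1aCKO mice and between 200.3 and 486 CPM in floxed controls. S7763 and S7601 were again highest in their groups, but S7601 was close to S2578 (floxed control) at 478 CPM. S2152 (floxed control) was the lowest of all mice at 200.3 CPM. With this sum *Aqp2* gave r = 0.72 (permutation p = 0.0150, adjusted 0.135, and rho = 0.59, permutation p = 0.0617), and r = 0.40 without S2152 and S7763, the mice farthest from its median. Relations of *Aqp3* and *Aqp4* to these sums did not pass adjustment. With the urothelium sum *Aqp3* gave r = 0.71 (permutation p = 0.0128, adjusted 0.125, and rho = 0.69, permutation p = 0.0226), and r = 0.32 without S7601 and S7763. *Aqp4* gave r = 0.72 (permutation p = 0.0102, adjusted 0.125, and rho = 0.47, permutation p = 0.145), and r = 0.12 without them. With the medulla and papilla sum *Aqp3* gave r = 0.66 (permutation p = 0.0349, adjusted 0.215, and rho = 0.45, permutation p = 0.175), and r = 0.042 without S2152 and S7763. *Aqp4* gave r = 0.67 (permutation p = 0.0314, adjusted 0.212, and rho = 0.63, permutation p = 0.0447), and r = 0.56 without them. The part of these tissues in the *Aqp2*, *Aqp3* and *Aqp4* levels was not tested.

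**Figure D5:**
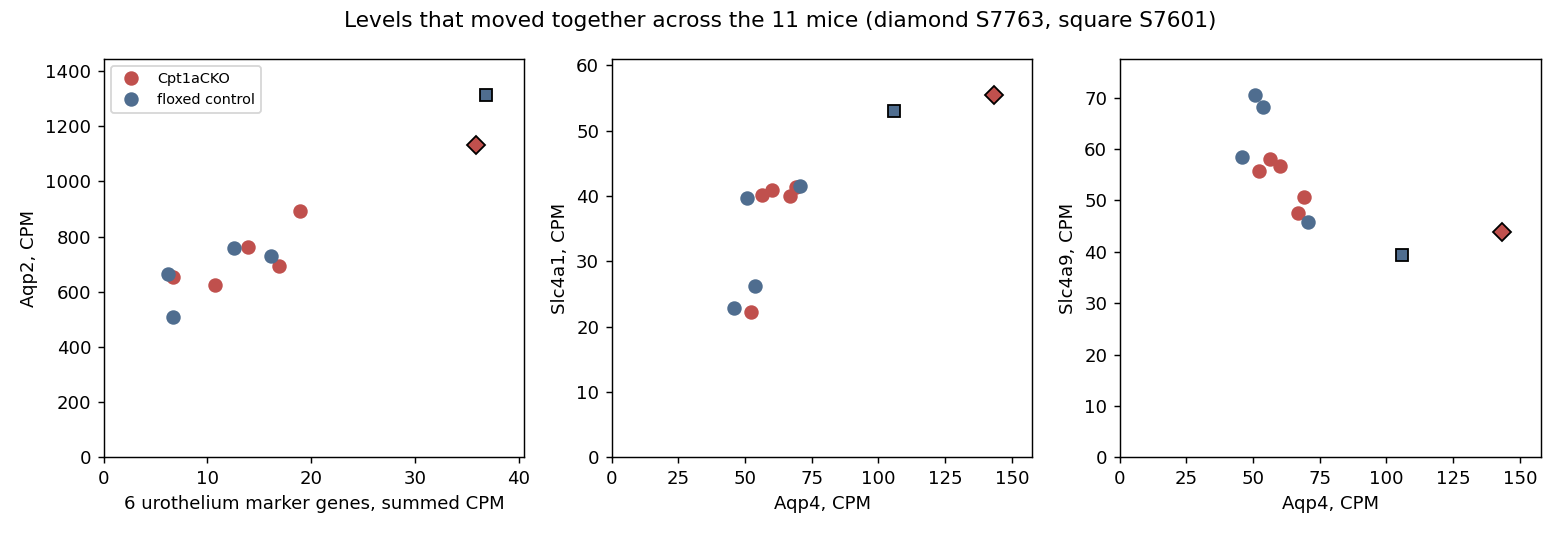
Each point is 1 mouse. Left, *Aqp2* (CPM) against the summed CPM of 6 urothelium markers (r = 0.90), where S7763 (diamond) and S7601 (square) lie apart. Middle, *Slc4a1* against *Aqp4* (r = 0.78). Right, *Slc4a9* against *Aqp4* (r = -0.80).

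For *Slc26a4* the closest list was the intercalated cell list, of which it is no member (r = 0.81, permutation p = 0.00017, adjusted 0.00918, and rho = 0.85, permutation p = 0.00195), with r = 0.83 without the mice farthest from the median. *Scnn1b* followed the distal convoluted and connecting tubule markers (r = 0.84, permutation p = 0.001, adjusted 0.0360, and rho = 0.70, permutation p = 0.0207). This r pools both genotypes, and *Scnn1b* (-0.19) and the list (median -0.25) both had negative log2 fold changes. No r of a gene with a list was computed within a genotype. Of proximal tubule markers (8 tested) and podocyte markers (5 tested) none passed in either direction by edgeR at unadjusted p. Over all genes tested 3.35% passed upward and 2.57% downward, so that these counts are near those shares.

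Among 13826 genes with a mean of at least 1 CPM, those most like *Aqp2* by Pearson's r over the 11 mice were *Muc20* (0.96), *Ndrg4* (0.94), *Muc1* (0.93), *Bace2* (0.93) and *Itm2a* (0.93), and *Aqp3* came at rank 87. Among those most like *Scnn1b* were *Fkbp8* (0.93), *S100g* (0.87), *Nat8f3* (0.87) and *Cgref1* (0.85). Most like *Slc4a1* were *Met* (0.95), *Lpcat2* (0.91), *Amigo2* (0.90), *Ppp6c* (0.90) and *Zfp869* (0.89), and *Aqp4* came at rank 73. Most like *Slc26a4* were *Cenpb* (0.92), *Tmem117* (0.92), *Asah2* (0.85), *Cep83os* (0.84) and *Tmem151a* (0.84), ahead of *Scnn1a* at rank 85 and *Scnn1b* at rank 104. These ranks describe 11 mice, picked from many genes, and carry no test.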

How the data were processed

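RNA-Seq counts of 11 libraries, 1 per mouse, were analyzed by the genotype in the labels. The authors aligned reads with STAR 2.7.3a and made the deposited raw counts per gene with HTSeq (version and strand setting not given in the sources used here, nor the genome build). The deposited signal values are counts the authors divided by DESeq2 size factors, and these, their log2 fold changes and their p-values were not used. After filterByExpr and TMM scaling, genes were compared in R 4.3.3 by the robust quasi-likelihood fit of edgeR 4.0.16, with Benjamini-Hochberg adjustment over 18160 genes and a threshold of 0.05. DESeq2 1.42.0, limma 3.58.1 (voom) and other settings were alternatives. Single genes and the 7 usable ratios, on log2 CPM with a prior count of 2, were tested by an exact two-sided permutation of the mice (462 splits). Correlations used 100000 permutations. Exon lengths and overlaps came from GENCODE M21, matched by gene ID.

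The genes and lists were chosen with earlier results of these data known. Genes were named from the transport and tubule lists by rule, from the 3 with the smallest p and the most abundant one. *Wnk1*, *Atp1b1*, *Trpm6* and *Arhgap4* were named after their values were seen, and some genes the rule names are not reported here. Relations to *Avpr2* were not computed. The scripts were tested on simulated data.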

Additional observations from a re-analysis of the deposited data

Results flagged for a closer look

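In the 18 combinations of gene and group examined, 3 held a mouse far from the rest by Dixon's criterion, which chance meets in about 1 of 20 groups. *Aqp3* in S7763 (Cpt1aCKO) was at 345 CPM, against 271 CPM in the next highest mouse of its group. *Aqp4* in S7763 was at 143 CPM, against 69.0 CPM in the next. *Scnn1g* in S7762 (floxed control) was at 73.1 CPM, against 61.4 CPM in the next. The causes were not tested.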

How the results depend on the processing

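Of the 9 tested genes, 0 were called at an adjusted p under 0.05 in any of the 21 alternatives run, while the genes called among all tested were 3 by edgeR, 49 by DESeq2 and 2 to 4 in the others. *Scnn1a* and *Scnn1b* were lower at unadjusted p in the main test (2 genes), 1 gene remained with library size only (*Scnn1a* then had an unadjusted edgeR p of 0.0591), and 0 to 2 were lower and 0 to 1 higher with 1 mouse left out. The log2 fold change of *Aqp2* was near 0 and turned to 0.025 (voom), 0.036 (library size only), 0.0020 (no filter), 0.0053 (at least 1 CPM in 5 samples), 0.060 (number series of the mice as covariate) and 0.13 (without both S7601 and S7763, an alternative chosen after seeing the data), and ran from -0.13 to 0.26 with 1 mouse left out. *Scnn1g* was at -0.0040 without those mice and -0.0025 to 0.074 with 1 left out, and *Aqp4* at -0.10 to 0.44.

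The log2 ratio of *Scnn1g* to *Scnn1b* differed by 0.18 (exact p = 0.103) without both S7601 and S7763, and by 0.15 to 0.24 with 1 mouse left out, when its exact p was under 0.05 in 3 of 11 cases. The other ratios ran, with 1 left out, from -0.0034 to 0.19 (*Slc4a9* to *Slc26a4*), -0.23 to 0.011 (*Aqp2* to *Aqp3*), -0.13 to 0.13 (*Aqp4* to *Aqp3*, and -0.0033 without both S7601 and S7763), -0.089 to 0.018 (*Scnn1a* to *Scnn1b*), -0.50 to -0.15 (*Slc26a4* to *Slc4a1*) and 0.048 to 0.44 (*Aqp2* to *Slc26a4*, main value 0.21, exact p = 0.524). By DESeq2 the proximal tubule markers had 1 lower and 1 higher gene of 8 at unadjusted p. Among all 18160 genes tested, 528 were lower and 692 higher by that rule. Counts in the other lists were as by edgeR. The causes were not tested. No paired analysis was possible because the labels give no shared replicate numbers and do not say which mice are littermates. With 6 against 5 mice, the intervals of *Aqp2*, *Aqp4* and *Slc4a1* were too wide to show moderate changes.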
